A study of Homo sapiens with 6 samples.

Results

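S100 proteins are small calcium-binding proteins, and 10 of their genes were followed here in MDA-MB-453 cells after silencing of *DUSP6*. The 10 genes, *S100A6*, *S100A7*, *S100A8*, *S100A9*, *S100A10*, *S100A11*, *S100A13*, *S100A14*, *S100A16* and *S100P*, were chosen from the 22807 genes of the table by their symbols, with results of the same *DUSP6* siRNA comparison known. Their own differences between the groups are therefore given as a description, and where a model fitted to all genes calls some of them, that is a count and no evidence of a change. MDA-MB-453 is an established HER2+ human breast cancer cell line of luminal type that carries the androgen receptor. The cells were of the line's own genotype and were compared in 2 groups of 3 RNA libraries each, 3 after scrambled siRNA, a control without a target, and 3 after siRNA against *DUSP6*, which encodes a phosphatase that inactivates the ERK kinases. The study describes different siRNAs within each group, and which of them went into which library was not known here, nor was the time of harvest, and the 3 libraries per group served as replicates. Nothing in the labels says that they came from separate cultures. P-values then measure the spread between these libraries, which may be technical and may also reflect the different siRNAs.

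An S100 protein is a small dimer built from paired EF-hand loops, the helix-loop-helix units that hold calcium. Inside the cell a dimer that binds calcium usually exposes a surface that grips a partner, often an annexin or a cytoskeletal protein, and outside the cell several S100 proteins act as ligands of the receptor RAGE (*AGER*) or of TLR4. In the breast the family is best known in the epithelium and in infiltrating myeloid cells, where S100A8 and S100A9 form the antimicrobial dimer calprotectin.

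The libraries held between 45546981 and 85729785 reads assigned to genes, and 1 read corresponded to a normalized value of 0.0121 to 0.0202. A normalized value is the number of reads of a gene relative to the TMM-scaled size of its library (CPM), TMM being a scaling that sets most genes level between libraries. *DUSP6* itself averaged 144 ± 55.7 with scrambled siRNA and 33.0 ± 7.68 with its own siRNA (SD, n = 3), and the log2 fold change was -2.05 (limma adjusted p = 3.09e-04, standard error 0.25). In the GENCODE annotation 28.6% of its exon sequence is shared with an antisense gene, and by default the counting tool does not use strand. Of the 10 genes that mark the cell line, 8 fell and 1 rose, and their summed value was 4637 to 6185 in the scrambled libraries and 3356 to 3605 after *DUSP6* siRNA. Of the 13 myeloid marker genes in the table, 11 stayed under a value of 1 in every library, among them *PTPRC*, the common leukocyte antigen, at 0.0809 or less. The summed value of 7 markers of basal epithelium and fibroblasts was 90.0 to 121 and 165 to 195, respectively, of which *COL1A1* held the larger portion (92.2 and 173 on average). The list did not move as a whole, since *TP63* fell (10.1 and 1.76 on average). Of the 7 markers, 5 stayed under a value of 1 in every library. Among them *KRT5* was lower (0.737 and 0.514) and *KRT14* higher (0.0411 and 0.357) without overlap. The part of these shifts in the S100 values was not tested.

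Of the 10 S100 genes, 9 lie in the S100 cluster on chromosome 1, band 1q21.3, and *S100P* lies on chromosome 4 (GRCh38, 6693878 to 6697170, + strand). The following promoters are those of the 4 genes with the largest decrease and of *S100P*, which was higher after *DUSP6* siRNA in all 3 libraries. Each is the RefSeq window of 250 bases before and 50 bases after the start of the gene on GRCh38.p14, written 5′ to 3′ on the strand of the gene, with letters that match a searched motif in capitals.
S100A9 (chr1:153357604-153357903, + strand): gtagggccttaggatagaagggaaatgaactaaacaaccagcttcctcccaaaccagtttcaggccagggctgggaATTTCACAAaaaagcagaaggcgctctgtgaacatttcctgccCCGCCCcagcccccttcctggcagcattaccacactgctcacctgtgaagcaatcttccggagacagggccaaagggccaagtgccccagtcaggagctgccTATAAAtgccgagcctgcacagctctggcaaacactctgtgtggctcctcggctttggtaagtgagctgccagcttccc
S100A14 (chr1:153616276-153616575, - strand): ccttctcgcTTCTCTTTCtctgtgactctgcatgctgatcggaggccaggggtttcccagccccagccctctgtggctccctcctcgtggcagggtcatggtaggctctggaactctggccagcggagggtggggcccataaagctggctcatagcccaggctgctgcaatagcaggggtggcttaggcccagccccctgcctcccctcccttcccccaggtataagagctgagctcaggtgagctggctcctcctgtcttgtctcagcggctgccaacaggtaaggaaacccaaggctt
S100A16 (chr1:153613088-153613387, - strand): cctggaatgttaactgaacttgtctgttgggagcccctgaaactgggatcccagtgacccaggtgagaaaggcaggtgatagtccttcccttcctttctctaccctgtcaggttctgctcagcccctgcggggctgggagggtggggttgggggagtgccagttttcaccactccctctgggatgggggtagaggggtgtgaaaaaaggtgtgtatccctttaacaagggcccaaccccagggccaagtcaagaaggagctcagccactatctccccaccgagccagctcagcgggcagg
S100A11 (chr1:152036955-152037254, - strand): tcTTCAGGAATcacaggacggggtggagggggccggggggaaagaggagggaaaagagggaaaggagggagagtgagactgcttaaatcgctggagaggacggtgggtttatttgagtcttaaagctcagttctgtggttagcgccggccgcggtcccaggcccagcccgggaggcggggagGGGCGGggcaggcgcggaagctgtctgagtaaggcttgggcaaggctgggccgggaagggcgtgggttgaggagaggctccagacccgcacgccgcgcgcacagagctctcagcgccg
S100P (chr4:6693628-6693927, + strand): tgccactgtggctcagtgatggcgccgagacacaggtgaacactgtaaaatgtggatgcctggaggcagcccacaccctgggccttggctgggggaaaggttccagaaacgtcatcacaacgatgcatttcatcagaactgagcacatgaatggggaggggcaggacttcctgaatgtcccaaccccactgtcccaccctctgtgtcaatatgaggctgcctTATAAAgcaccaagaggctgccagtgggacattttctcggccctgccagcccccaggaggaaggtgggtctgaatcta
Motifs of factors that are known to act on S100 genes or on promoters in general were searched on both strands of all 10 windows. A TATA box (TATAAA) was found in 5 windows, those of *S100A7*, *S100A8*, *S100A9*, *S100A13* and *S100P*, and in 11.6% of the 34796 RefSeq windows of this length. In *S100A9* it began at position -29 and in *S100P* at position -28 from the start of the gene. The GC box (GGGCGG) stood in 4 windows, of *S100A6*, *S100A9*, *S100A10* and *S100A11*, against 44.9% of all windows. A C/EBP core (TTNNGNAAT) was present in *S100A9* and *S100A11* and in 11% of all windows. An ISRE core (GAAANNGAA, 8.11% of all windows) was present in *S100A14*, and an octamer (ATGNAAAT, 5.02%) in *S100A8*. The AP-1 motif (TGANTCA, 7.73%), the STAT motif (TTCNNNGAA, 7.67%) and the androgen receptor half-site (AGAACA, 14.8%) were found in 0 of the 10 windows. The matches in the printed windows did not overlap one another. The window of *S100A16* held 0 matches, so the 4 promoters with the largest decrease had no searched motif in common.

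Of the 10 genes, 8 averaged a value of 1 or more across all libraries and entered the fit, and all 8 had a lower mean after *DUSP6* siRNA. By limma at an adjusted p under 0.05, 6 were called lower and 0 higher, and the count of higher genes was also 0 at an unadjusted p under 0.05 and by edgeR. The count of lower genes was 5 without *DUSP6* siRNA replicate 2 and 7 without scrambled replicate 3. Across all 12862 genes tested, 24.7% were called lower and 19.7% higher. In the same 6 genes, every *DUSP6* siRNA library lay under every scrambled library, as it did in 31.1% of all genes tested, while 26.7% of all genes tested lay higher without overlap. Nothing is read from these counts, since the comparison was known when the genes were chosen. The median log2 fold change of the 8 genes was -1.08, and that of all genes tested was -0.01. In bulk RNA, fewer cells that hold a transcript and less of it per cell cannot be told apart.

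**Figure D1:**
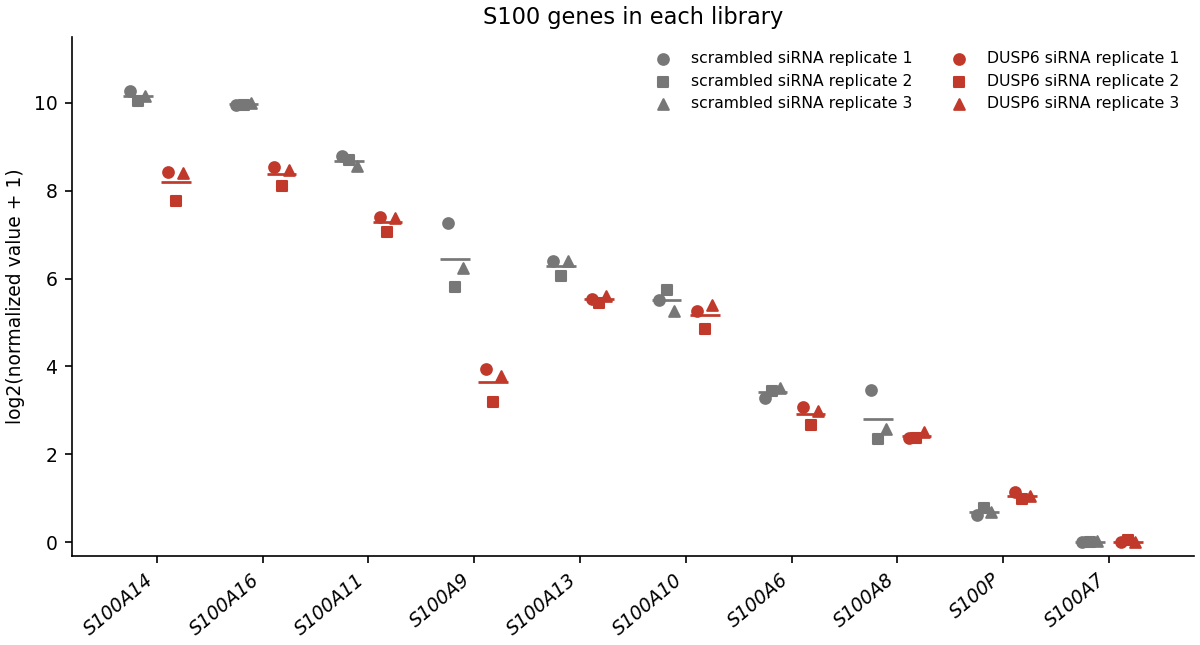
Normalized value of the 10 S100 genes in each library, on a log2(value + 1) scale, with 3 scrambled siRNA libraries in grey, 3 *DUSP6* siRNA libraries in red, the replicate number as the shape of the point and the mean of the log values as a line. The red points lie under all grey points for *S100A14*, *S100A16*, *S100A11*, *S100A9*, *S100A13* and *S100A6*, overlap them for *S100A10* and *S100A8*, lie above them for *S100P*, and stay at the floor for *S100A7*.

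*S100A14* and *S100A16*, 2 neighbors on chromosome 1, carried most of the reads of the 10 genes in these cells. *S100A14* (chromosome 1, 153614255 to 153616986, - strand) had normalized values of 1226, 1047 and 1140 in the scrambled libraries (replicates 1 to 3, in this order throughout) and of 340, 216 and 336 after *DUSP6* siRNA. The groups were far apart, and the mean was 1138 ± 89.5 (SD, n = 3) against 297 ± 70.6 (SD, n = 3), 3.83-fold lower, with a log2 fold change of -1.96 (standard error 0.17). *S100A16* (153606886 to 153613145, - strand) had values of 984, 983 and 1022 in the scrambled libraries and of 370, 274 and 355 after *DUSP6* siRNA. Its scrambled libraries were closely matched (997 ± 22.2, SD, n = 3), and the mean after *DUSP6* siRNA was 333 ± 51.5 (SD, n = 3), 2.99-fold lower, with a log2 fold change of -1.59 (standard error 0.12).

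Both genes together made up 76.9% of the summed value of the 10 genes in the scrambled libraries (range 74.8% to 78.7%) and 70.7% after *DUSP6* siRNA (68.9% to 71.9%). That sum was 2954, 2634 and 2748 in the scrambled libraries and 986, 711 and 971 after *DUSP6* siRNA. Per kilobase of the main transcript, *S100A14* stood above *S100A16* in each scrambled library, with ratios of 1.38, 1.18 and 1.24. After *DUSP6* siRNA the ratios were 1.02, 0.875 and 1.05, all lower than in the scrambled libraries, so *S100A14* stood lower relative to its neighbor.

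*S100A11* encodes a partner of annexins, among them ANXA1, that takes part in membrane repair and in the growth control of epithelial cells. It lies 49.6 kb after *S100A10* by their lowest coordinates (152032506 to 152047907, - strand). Its normalized values were 443, 416 and 375 in the scrambled libraries and 167, 132 and 166 after *DUSP6* siRNA. No value of the second group came near the first, and the mean was 411 ± 34.3 (SD, n = 3) against 155 ± 20.3 (SD, n = 3), 2.65-fold lower, with a log2 fold change of -1.41 (standard error 0.12). Processed pseudogene copies of *S100A11* exist in the genome, and how reads shared with them were counted was not known here.

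*S100A9* encodes the larger subunit of calprotectin, and of the 10 genes it had the largest decrease. It lies at 153357854 to 153361023 on the + strand, while the other 8 genes described here that belong to the cluster lie on the - strand. Its normalized values were 152, 54.9 and 74.8 in the scrambled libraries and 14.4, 8.16 and 12.7 after *DUSP6* siRNA. Scrambled replicate 1 stood well above the other scrambled libraries, yet the lowest scrambled value was still far above the highest value after *DUSP6* siRNA. The mean was 94.0 ± 51.5 (SD, n = 3) against 11.7 ± 3.21 (SD, n = 3), 8.01-fold lower, with a log2 fold change of -2.80 (standard error 0.34). Without scrambled replicate 1 the log2 fold change was -2.39.

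*S100A8*, which encodes the other calprotectin subunit, showed a smaller difference than *S100A9*. It lies at 153390032 to 153391073 and had values of 10.0, 4.14 and 4.98 in the scrambled libraries and of 4.17, 4.15 and 4.70 after *DUSP6* siRNA. Scrambled replicate 1 was high here too, and the other scrambled libraries overlapped the *DUSP6* siRNA group. The mean was 6.37 ± 3.17 (SD, n = 3) against 4.34 ± 0.313 (SD, n = 3), with a log2 fold change of -0.39 (standard error 0.25). This value rested on scrambled replicate 1, since without it the log2 fold change was -0.06, while without scrambled replicate 2 it was -0.61.

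The ratio of *S100A9* to *S100A8*, per kilobase of transcript, was 10.9, 9.44 and 10.7 in the scrambled libraries. After *DUSP6* siRNA it was 2.45, 1.40 and 1.92. The ratio was thus nearly constant among the scrambled libraries although both levels varied (10.3 ± 0.777, SD, n = 3), and it was lower in each library after *DUSP6* siRNA (1.93 ± 0.527, SD, n = 3). Calprotectin is abundant in neutrophils and monocytes, so the markers of these cells were read beside it. Their summed value was 6.97 to 8.40 in the scrambled libraries and 4.92 to 6.43 after *DUSP6* siRNA. *CD68*, a lysosomal protein of macrophages, held most of it (5.00 ± 0.525 against 4.53 ± 1.03, SD, n = 3, limma adjusted p = 0.518), with 81.6% of its exon sequence shared with another gene. *CSF3R*, the receptor of a granulocyte growth factor, had values of 2.26, 1.02 and 1.82 in the scrambled libraries and of 0.243, 0.196 and 0.0927 after *DUSP6* siRNA. It was lower without overlap, like *S100A9*, but too low to enter the fit. Without *CSF3R* the summed value of the markers was 5.15 to 6.14 and 4.72 to 6.33. Other markers, under a value of 1 in every library, were higher without overlap after *DUSP6* siRNA. These were *LYZ* (means of 0.0964 and 0.248), *ITGAM* (0.103 and 0.204), *PTPRC* (0.0170 and 0.0546) and *CD14* (0.0551 and 0.0986). All of these markers were named after their values were seen, and the part of these cells in the S100 values was not tested.

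**Figure D2:**
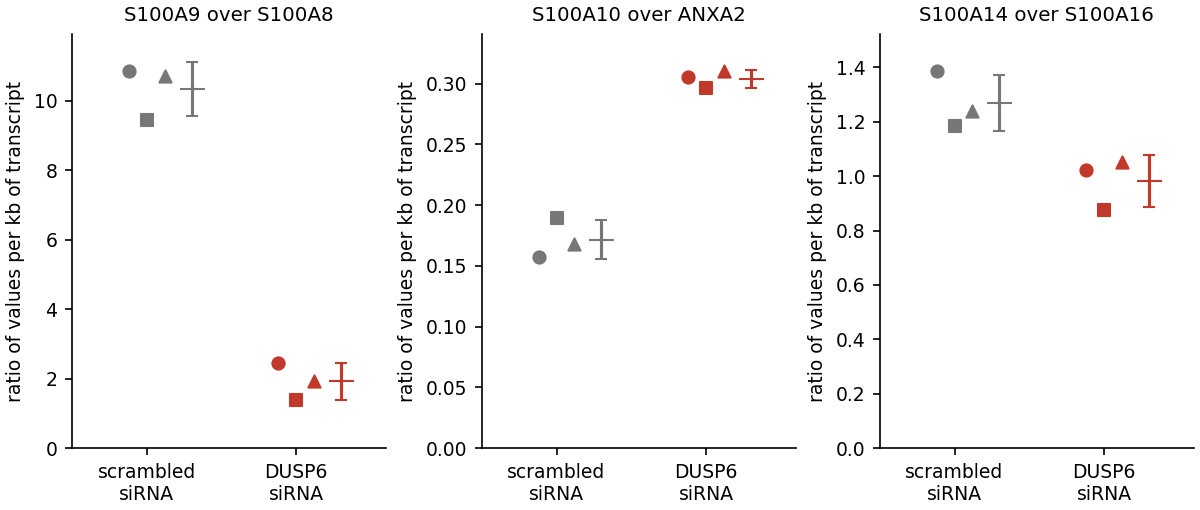
Ratios of normalized values per kilobase of transcript in each library for *S100A9* over *S100A8*, *S100A10* over *ANXA2* and *S100A14* over *S100A16*, on linear axes from 0, with points as libraries (shape as replicate) and the mean ± SD (n = 3) beside them. *S100A9* over *S100A8* and *S100A14* over *S100A16* were lower after *DUSP6* siRNA in every library (1.40 to 2.45 against 9.44 to 10.9 for the former), and *S100A10* over *ANXA2* was higher in every library (0.296 to 0.310 against 0.158 to 0.189).

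*S100A10* encodes p11, which binds ANXA2 and brings plasminogen and its activator to the cell surface. It does not need calcium to do so. It lies at the start of the cluster (151982915 to 151993859, - strand) and had values of 44.9, 52.8 and 37.2 in the scrambled libraries and of 37.2, 27.8 and 41.2 after *DUSP6* siRNA. The groups overlapped, and the mean was 45.0 ± 7.80 (SD, n = 3) against 35.4 ± 6.88 (SD, n = 3), with a log2 fold change of -0.34 (standard error 0.17). It was -0.47 without scrambled replicate 3 and -0.18 without *DUSP6* siRNA replicate 2. Its partner *ANXA2* fell from 607 ± 80.8 to 269 ± 46.6 (SD, n = 3), and the log2 fold change was -1.18 (limma adjusted p = 3.68e-04, standard error 0.15). The ratio of *S100A10* to *ANXA2* per kilobase was accordingly higher after *DUSP6* siRNA (0.304 ± 0.00706, SD, n = 3) than in the scrambled libraries (0.172 ± 0.0163, SD, n = 3).

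*S100A6* encodes calcyclin, which binds the ubiquitin ligase adaptor CACYBP and several annexins. Its values were 8.73, 9.91 and 10.5 in the scrambled libraries and 7.40, 5.37 and 6.92 after *DUSP6* siRNA (153534599 to 153536244, - strand). The groups did not overlap but stood close, with a mean of 9.71 ± 0.893 (SD, n = 3) against 6.56 ± 1.06 (SD, n = 3), 1.48-fold lower, and a log2 fold change of -0.51 (standard error 0.14). Without *DUSP6* siRNA replicate 2 it was -0.39.

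*S100A13* encodes a protein that helps FGF1 and IL1A to leave the cell without a signal peptide. It lies next to *S100A14* (153618787 to 153631360, - strand) and had values of 83.8, 65.6 and 82.9 in the scrambled libraries and of 45.1, 42.8 and 47.6 after *DUSP6* siRNA. The mean was 77.4 ± 10.2 (SD, n = 3) against 45.2 ± 2.37 (SD, n = 3), 1.71-fold lower without overlap, with a log2 fold change of -0.76 (standard error 0.11). In GENCODE 24.2% of its exon sequence is shared with another gene on the same strand. Whether the RefSeq models used for counting hold that gene was not known here, so its counts are uncertain to an unknown extent.

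*S100P*, whose product binds ezrin and RAGE, was the one gene of the 10 that was higher without overlap after *DUSP6* siRNA, at a low level. Its values were 0.550, 0.728 and 0.603 in the scrambled libraries, from 37, 38 and 50 reads, and 1.21, 0.966 and 1.08 after *DUSP6* siRNA, from 60, 79 and 70 reads. The means of 0.627 and 1.09 stood 1.73-fold apart. It fell under the filter on low values, and the log2(value + 1) difference of 0.36 is small because 1 was added. With a pseudocount of 0.1 it was 0.71. *S100A7*, which encodes the antimicrobial protein psoriasin, had 0, 0 and 2 reads in the scrambled libraries and 0, 3 and 0 after *DUSP6* siRNA. A difference was not detectable at this depth.

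Compared per kilobase of transcript, the order of levels in the scrambled libraries was *S100A14* (1079), *S100A16* (850), *S100A11* (731), *S100A9* (164), *S100A13* (162), *S100A10* (67.0), *S100A6* (22.4), *S100A8* (15.6) and *S100P* (1.33). *S100A9* and *S100A13* stood next to each other there and overlapped between libraries, as did *S100A6* and *S100A8*. After *DUSP6* siRNA, *S100A16* (284), *S100A14* (282) and *S100A11* (275) lay side by side, within the spread of their libraries. They were followed by *S100A13* (94.7), *S100A10* (52.8), *S100A9* (20.5), *S100A6* (15.1), *S100A8* (10.6) and *S100P* (2.31), with *S100A9* and *S100A6* overlapping. By the mean, *S100A9* thus stood above *S100A13* and *S100A10* in the scrambled libraries and below these genes after *DUSP6* siRNA. Its place above *S100A13* rested on scrambled replicate 1 (266 against 176). In scrambled replicates 2 and 3, *S100A9* was below *S100A13* (95.7 against 138 and 131 against 174). All these levels use the length of the main transcript, which for *S100A13* is 477 bases. Its annotated exons together span 2216 bases, while *S100A9* has 573 bases by either measure. The place of *S100A13* in the order thus depends on the length used. *S100A9* was above *S100A10* in each scrambled library and below it in each *DUSP6* siRNA library.

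The libraries of a group also differed among themselves in a shared manner. Among the *DUSP6* siRNA libraries, replicate 2 had the lowest value for all 8 genes that entered the fit, although for *S100A8* the gap was small (4.15 against 4.17 and 4.70), and it also had the lowest *DUSP6* value (24.5 against 39.4 and 35.2). Among the scrambled libraries, replicate 1 had the highest value for 5 of the 8 genes and the highest *DUSP6* value (209 against 110 and 114). In the scrambled libraries *S100A9* and *S100A8* varied most, by 0.82 above to 0.63 below the group mean and 0.66 above to 0.44 below it on the log2(value + 1) scale. *S100A16* varied least, by at most 0.04. The share of all genes tested that were lowest or highest in the same libraries was not counted. Whether this manner is particular to the S100 genes is therefore not known. Differences between libraries and differences between the siRNAs used cannot be told apart here. With 3 libraries in a group, no relation between *DUSP6* and the S100 genes was tested.

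**Figure D3:**
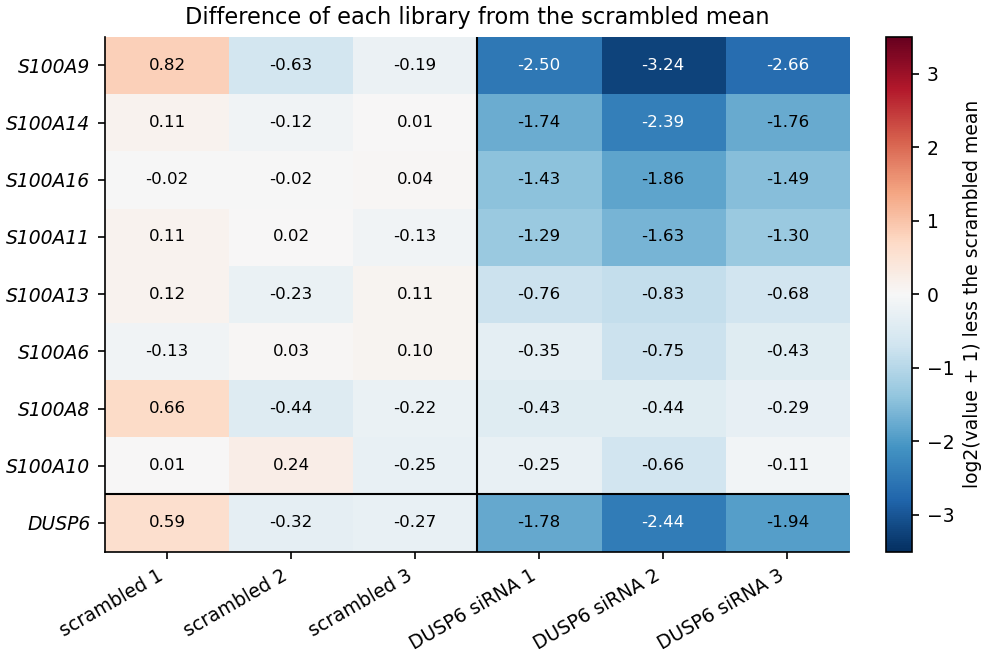
Difference of each library from the mean of the scrambled libraries, in log2(value + 1), for the 8 S100 genes that entered the fit and for *DUSP6* (bottom row), with red above and blue below the scrambled mean. *DUSP6* siRNA replicate 2 is the lowest of the 3 *DUSP6* siRNA libraries in every row (-3.24 for *S100A9* and -2.44 for *DUSP6*), and scrambled replicate 1 stands out upward for *S100A9* (0.82), *S100A8* (0.66) and *DUSP6* (0.59).

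By a rule of likeness, the root mean square difference of centered log2(value + 1) profiles over the 6 libraries, 12852 genes outside the family were compared with *S100A9*. The nearest were *GBP2* (0.306), an interferon-inducible GTPase, *SUSD2* (0.319), a membrane protein, *TNS1* (0.366), a focal adhesion protein, *ALDH3B2* (0.370), an aldehyde dehydrogenase, and *BGN* (0.384), a matrix proteoglycan. *GBP2* had values of 28.0, 13.2 and 11.8 in the scrambled libraries and of 3.34, 1.58 and 2.92 after *DUSP6* siRNA. As with *S100A9*, scrambled replicate 1 was its highest library and *DUSP6* siRNA replicate 2 its lowest. The rule selects for such a likeness over these same libraries, so it is no separate observation. The log2 fold changes of the 5 genes ran from -3.04 (*TNS1*) to -2.24 (*BGN*).

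The remainder of the family was hardly expressed. Of 10 other S100 genes in the table, 9 had a mean under the filter, and *S100A1*, a regulator of calcium handling in muscle, was the one that entered the fit. It had a mean of 1.55 ± 0.377 in the scrambled libraries and of 1.65 ± 0.273 after *DUSP6* siRNA (SD, n = 3), and the log2 fold change was 0.06 (limma adjusted p = 0.753, standard error 0.14). *S100A1* lies head to head with *S100A13*, and 10.6% of its exon sequence is shared with a gene of the opposite strand. *S100A2*, *S100A3* and *S100A4* had scrambled means of 0.676, 0.108 and 0.0650. The 6 genes of the fused type in the table, which join an S100 domain to a long repeat region, stayed under the filter as well.

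To see whether genes beside the cluster moved too, 63 genes outside the S100 family were taken from the table. Each has its lowest RefSeq coordinate between 151482915 and 154134361 on chromosome 1, which is the cluster and 500 kb on each side. Of the 63 genes, 21 entered the fit, and 7 were lower, 1 higher and 13 not called, with a median log2 fold change of -0.06. Across all genes tested, 24.7% were called lower and 19.7% higher. Among the lower genes beside the cluster, *CREB3L4*, a membrane-bound transcription factor, fell (-0.81, limma adjusted p = 0.00217, standard error 0.14), with 9.65% of its exon sequence shared with *SLC39A1*. *GATAD2B*, a subunit of the NuRD complex, likewise fell (-0.71, limma adjusted p = 9.76e-04, standard error 0.11). The trio of *S100A16*, *S100A14* and *S100A13*, whose lowest coordinates lie 7.37 kb and 4.54 kb apart, is followed by *S100A1* and then by *CHTOP*. The mean of *CHTOP* was 113 in the scrambled libraries and 109 after *DUSP6* siRNA. The number called higher depended on single libraries, being 0 without scrambled replicate 2 or any 1 of the *DUSP6* siRNA libraries and 3 without scrambled replicate 3.

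**Figure D4:**
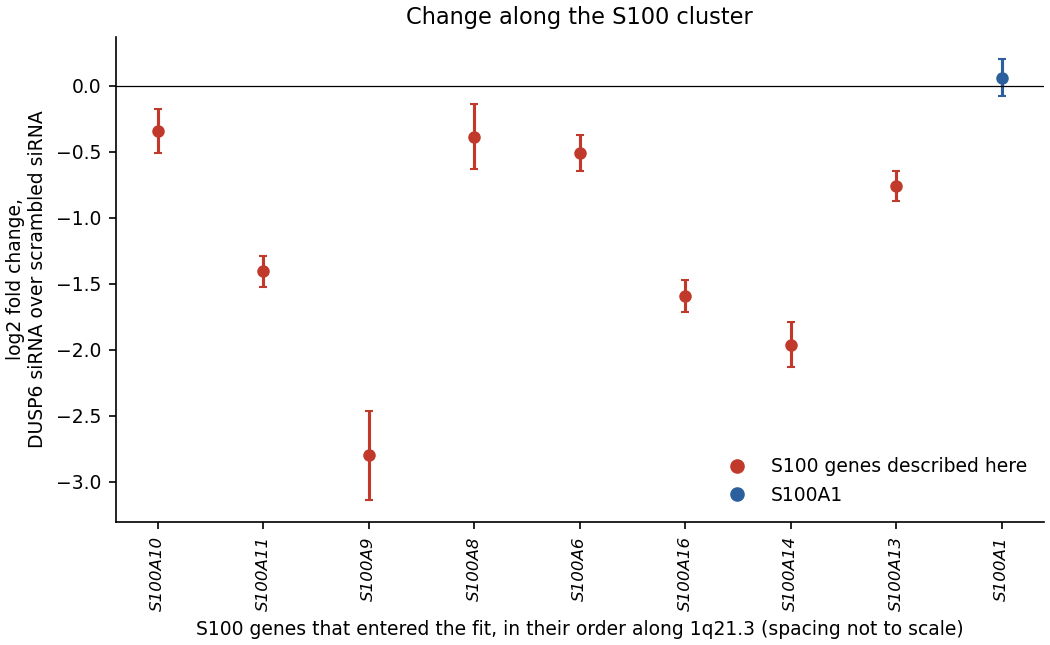
Log2 fold change (*DUSP6* siRNA over scrambled siRNA, points, with the standard error as bars) of the S100 genes of the cluster that entered the fit, in their order along chromosome 1 and not to scale. S100 genes described here (red) lie between -2.80 and -0.34, and *S100A1* (blue) lies at 0.06.

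Annexins bind membranes in the presence of calcium, and several do so together with an S100 dimer. Of 13 annexin genes, 8 entered the fit, and 5 fell, 0 rose and 3 were not called, with a median log2 fold change of -0.43. Besides *ANXA2*, the largest changes were those of *ANXA9*, an annexin that does not bind calcium in the usual manner, from 27.3 ± 4.14 to 6.39 ± 0.516 (SD, n = 3, log2 fold change -1.93, limma adjusted p = 1.29e-05, standard error 0.13), and of *ANXA6*, from 143 ± 20.8 to 45.1 ± 3.60 (SD, n = 3, -1.64, limma adjusted p = 2.32e-05, standard error 0.12). By limma the count of higher annexins was 1 at an unadjusted p under 0.05 and 1 without scrambled replicate 2, and by edgeR it was 1. The shares of all genes tested, to be read beside this and the following lists, were 24.7% called lower and 19.7% higher.

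Of 29 genes for intracellular partners of S100 proteins and for the plasminogen system, 17 entered the fit, and 9 fell, 3 rose and 5 were not called (median log2 fold change -0.33). *AHNAK*, a giant scaffold protein bound by the S100A10 and ANXA2 complex, fell from 947 ± 84.5 to 232 ± 44.1 (SD, n = 3, log2 fold change -2.04, limma adjusted p = 1.88e-05, standard error 0.15). *AHNAK2*, its relative, rose from 0.546 ± 0.102 to 2.72 ± 0.526 (SD, n = 3, 1.26, limma adjusted p = 1.28e-04, standard error 0.13). *DBNL*, an actin-binding adaptor with 6.91% of its exon sequence shared with *PGAM2*, fell by 0.67 on the log2 scale (limma adjusted p = 5.22e-04, standard error 0.09). Direct partners named above were added after their values were seen. *CACYBP*, bound by S100A6, fell from 204 ± 28.0 to 127 ± 2.44 (SD, n = 3, -0.67, limma adjusted p = 0.00122), with 12.2% of its exon sequence shared with another gene. *EZR*, the ezrin gene, fell from 417 ± 49.5 to 296 ± 8.76 (SD, n = 3, -0.49, limma adjusted p = 0.00535).

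Of 13 genes for receptors of extracellular S100 proteins and their adaptors, 8 entered the fit, and by limma 2 rose, 0 fell and 6 were not called (median log2 fold change 0.09). At an unadjusted p under 0.05 the count of lower genes was also 0, as it was by edgeR. *MYD88*, the adaptor of TLR4, rose from 54.9 ± 6.96 to 84.2 ± 8.19 (SD, n = 3, 0.61, limma adjusted p = 0.00345, standard error 0.12), and *ALCAM*, an adhesion molecule, rose from 182 ± 34.6 to 262 ± 34.4 (SD, n = 3, 0.53, limma adjusted p = 0.0199, standard error 0.15). The count of risen genes was 1 without *DUSP6* siRNA replicate 2, and 1 gene was called lower without scrambled replicate 1 or 2. *AGER*, which encodes RAGE, had a mean of 7.87 ± 2.43 and 9.05 ± 1.53 (SD, n = 3), and the log2 fold change was 0.20 (limma adjusted p = 0.416, standard error 0.19). *TLR4* had a mean of 0.00496 in the scrambled libraries and 0 after *DUSP6* siRNA, both under the value of 3 reads. *AGER* and *TLR4* were named after their values were seen.

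Of 24 other EF-hand genes, 21 entered the fit, and 6 fell, 2 rose and 13 were not called (median log2 fold change -0.17). *CALML5*, a calmodulin-like protein of differentiating keratinocytes, fell from 28.9 ± 6.32 to 6.72 ± 1.39 (SD, n = 3, -1.95, limma adjusted p = 6.60e-05, standard error 0.18). *GCA*, or grancalcin, rose from 20.1 ± 1.20 to 42.0 ± 3.19 (SD, n = 3, 1.03, limma adjusted p = 1.01e-04, standard error 0.10), and *CALML4* fell by 0.75 on the log2 scale (limma adjusted p = 0.00221, standard error 0.13). The value of *CALML4* is uncertain, since 82.0% of its exon sequence is shared with another gene. The count of risen genes was 1 without scrambled replicate 2 or any 1 of the *DUSP6* siRNA libraries and 5 without scrambled replicate 3. The share that fell was close to the 24.7% of all genes tested.

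**Figure D5:**
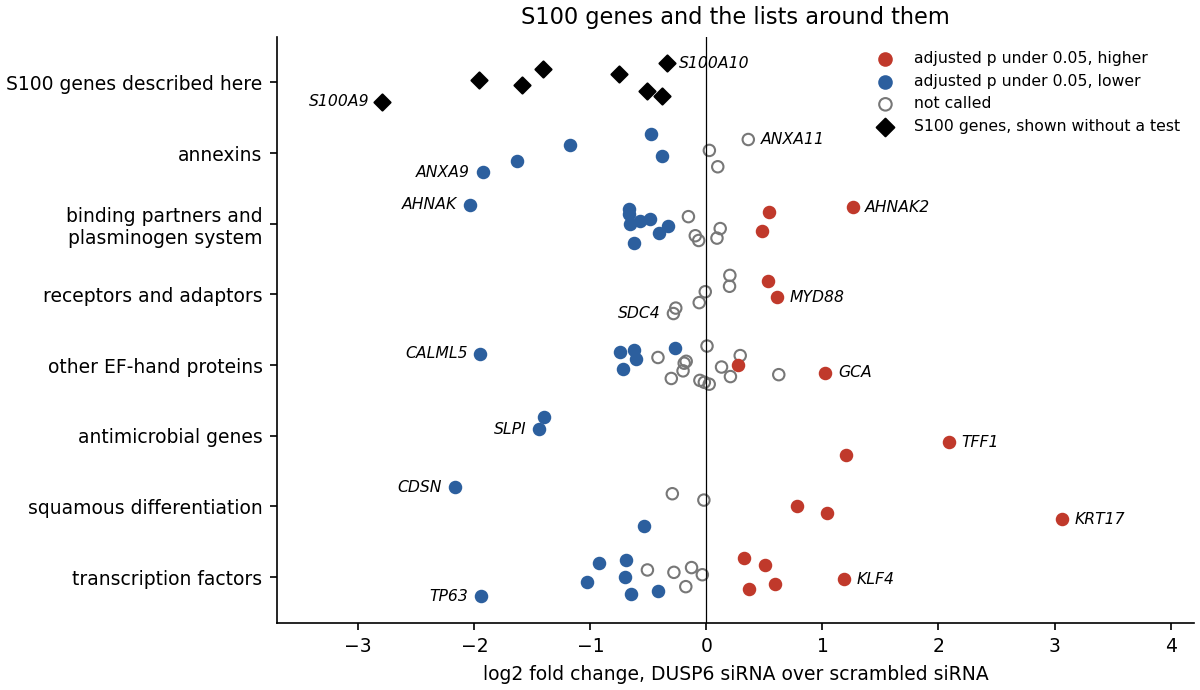
Log2 fold change (*DUSP6* siRNA over scrambled siRNA) of each gene that entered the fit, by list, with the lowest and the highest gene of each list named. Filled circles were called by limma at an adjusted p under 0.05 (red higher, blue lower), open circles were not called, and diamonds are the S100 genes, shown without a test and all below 0, from -2.80 to -0.34.

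Calprotectin and psoriasin belong to the antimicrobial outfit of epithelia, and 14 other genes of that kind were in the table. Of these 4 entered the fit, and 2 fell and 2 rose. *SLPI*, a protease inhibitor, fell from 17.1 ± 2.92 to 5.62 ± 0.866 (SD, n = 3, -1.45, limma adjusted p = 1.49e-04, standard error 0.15), and *DMBT1*, a scavenger receptor of mucosal surfaces, fell from 16.9 ± 3.21 to 5.73 ± 0.604 (SD, n = 3, -1.40, limma adjusted p = 1.31e-04, standard error 0.15). *TFF1*, a trefoil peptide, rose from 7.10 ± 4.33 to 30.3 ± 3.87 (SD, n = 3, 2.09, limma adjusted p = 0.00121, standard error 0.33).

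Many S100 genes are also raised in differentiating squamous epithelium. Of 22 genes of squamous differentiation in the table, 7 entered the fit, and 2 fell, 3 rose and 2 were not called (median log2 fold change -0.02). *KRT17* rose from 0.875 ± 0.294 to 14.7 ± 2.51 (SD, n = 3, 3.06, limma adjusted p = 3.94e-06, standard error 0.16), and *KRT16* from 1.55 ± 0.415 to 4.23 ± 0.506 (SD, n = 3, 1.04, limma adjusted p = 5.51e-04, standard error 0.14), both keratins of activated keratinocytes. *CDSN*, a protein of the cornified junctions, was called lower (-2.17, limma adjusted p = 9.44e-06, standard error 0.14), but 93.7% of its exon sequence is shared with *PSORS1C1*, so its value is uncertain. The summed value of the list was 220 to 271 in the scrambled libraries and 169 to 171 after *DUSP6* siRNA. Without *CDSN* it was 95.0 to 116 and 142 to 144, higher after *DUSP6* siRNA. The genes behind that sum differed and were named after their values were seen. *CSTB* stayed level (69.8 and 68.6 on average), and *DSC2* rose (28.9 and 48.4, limma adjusted p = 0.0189). *TGM1* fell (2.47 and 1.38, limma adjusted p = 0.00482). The part of this list in the S100 values was not tested.

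Of 19 transcription factors that are known to act on S100 genes, 17 entered the fit, and 7 fell, 5 rose and 5 were not called (median log2 fold change -0.28). *TP63*, a factor of stratified epithelium, fell from 10.1 ± 4.47 to 1.76 ± 0.337 (SD, n = 3, -1.95, limma adjusted p = 3.39e-04, standard error 0.24), and *MYB* fell from 58.6 ± 3.94 to 28.2 ± 0.606 (SD, n = 3, -1.03, limma adjusted p = 5.80e-05, standard error 0.09). *KLF4* rose from 32.4 ± 0.845 to 75.8 ± 12.6 (SD, n = 3, 1.19, limma adjusted p = 1.46e-04, standard error 0.13), with 8.39% of its exon sequence shared with another gene. The factors of the C/EBP family, whose core was found in the promoters of *S100A9* and *S100A11*, went different ways and were named after their values were seen. *CEBPA* fell (58.7 ± 10.9 to 30.1 ± 2.08, SD, n = 3, -0.92, limma adjusted p = 8.97e-04), *CEBPB* rose (21.1 ± 4.43 to 30.2 ± 4.55, SD, n = 3, 0.51, limma adjusted p = 0.0329), and *CEBPD* was not called (-0.13, limma adjusted p = 0.436). Of their exon sequence, 25.3% in *CEBPA* and 12.6% in *CEBPB* is shared with another gene, which leaves these values uncertain. The count of risen factors was 3 without scrambled replicate 2, *DUSP6* siRNA replicate 1 or *DUSP6* siRNA replicate 3.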

How the data were processed

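The libraries were made from RNA of MDA-MB-453 cells with an Illumina stranded mRNA kit. With Rsubread at default settings, the authors mapped reads to hg38 and counted them over RefSeq gene models, and they deposited 1 normalized signal value per gene and library. All nonzero values (100%) were whole reads times 1 step per library, within 0.001 reads up to 1000 reads and in proportion above, and the steps were those of TMM in edgeR (processing notes also name bcl2fastq). Values are thus already scaled for depth and composition.

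Here limma 3.58.1 (R 4.3.3, lmFit, eBayes with a trend) was fitted to log2(value + 1) of 12862 of 22807 genes, those averaging 1 or more across the libraries. P-values were adjusted by the Benjamini-Hochberg method, and genes under 0.05 were called. A fold change on this scale understates that of low genes, and folds quoted as such are ratios of means. Both limma and edgeR 4.0.16 were tested on simulated data. On recovered reads, edgeR called 2771 genes higher and 2969 lower. Transcript lengths and exon overlap came from GENCODE on GRCh38. Of each list, the up to 3 called genes with the largest absolute change were named, together with the 5 genes most like *S100A9*. As an exception, 1 gene that this rule names, counted among those called lower beside the cluster, is not reported here. Genes and lists were chosen with earlier results of these data known. The alternatives were another pseudocount, 2 filters, 2 scalings, a replicate block, eBayes without a trend, edgeR, and leaving out each library. Of the listed S100 genes, *S100A7L2* was not analysed here.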

Additional observations from a re-analysis of the deposited data

How the results depend on the processing

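The 8 S100 genes that entered the fit had a lower mean under each pseudocount, filter, scaling, test and block tried. *S100P* was higher wherever it had a value, and it had none under quantile normalization or edgeR. *S100A7*, at 0 to 3 reads, has no direction. Quantile normalization gave -1.20 for *S100A11* and -1.36 for *S100A16*, a pseudocount of 0.1 gave 0.71 for *S100P* and 0.046 for *S100A7*, and without a filter the count of higher genes among the 10 was 1, *S100P*. With a filter at a mean of 10, 1639 of all genes were called higher, and *S100A6* and *S100A8* were not tested. The share of called genes that were higher was 44.4%, and 50.6% under quantile normalization.

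The same replicate numbers did not pair the libraries (correlation of deviations 0.005, 0.087 and -0.076). With the replicate number as a block, 2495 genes were higher, 3096 lower and 6 S100 genes lower.

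Leaving out each library in turn gave log2 fold changes of -2.22 to -1.76 for *DUSP6*, -0.59 to -0.39 for *S100A6*, -0.01 to 0.02 for *S100A7*, -0.61 to -0.06 for *S100A8*, -3.12 to -2.39 for *S100A9*, -0.47 to -0.18 for *S100A10*, -1.47 to -1.29 for *S100A11*, -0.87 to -0.70 for *S100A13*, -2.07 to -1.75 for *S100A14*, -1.67 to -1.46 for *S100A16* and 0.32 to 0.40 for *S100P*. It gave 1574 to 3183 genes higher, 2306 to 3581 genes lower, 5 to 7 S100 genes lower and 0 higher. The lowest number of higher genes came without *DUSP6* siRNA replicate 2. The cause of these changes was not tested. Depth limits the reading of *S100A7* and, at 37 to 79 reads, of *S100P*.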
